A study of Xenopus laevis with 9 samples.

Results

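The Myc family of transcription factors was followed in the tails of stage 54 tadpoles of the frog Xenopus laevis, by Affymetrix array, after exposure of whole larvae to 3,5,3'-triiodothyronine (T3), the active thyroid hormone. Members were all probe sets annotated to myc, mycl, mycn, max or a numbered mxd gene, and no measured value entered that choice. They came to 16 probe sets for 10 genes, of 15491 probe sets tested and 7531 genes named in all. The genes are myc, mycl, mycn, max and mxd4, each as the pair of homeologs .L and .S that Xenopus laevis carries from its genome duplication. The groups were tails after 48 h in 20 nM T3, tails after 6 h in 20 nM T3, and tails after 48 h in vehicle, with 3 arrays per group. Each array was made from a pool of 3 tails of stage 54 tadpoles (the source label gives stages 51 to 54), and no strain, sex or clutch is given. No vehicle tails were collected at 6 h, and a difference between T3 6 h and vehicle therefore holds hormone and exposure time together. A difference between T3 48 h and T3 6 h likewise holds length of hormone exposure and elapsed time together. Whether replicate pools stem from different clutches is not given, so p-values measure only the spread between these pools.

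MYC proteins bind DNA as pairs with MAX and drive cell growth, above all the production of ribosomes. MXD proteins compete for MAX, sit on the same DNA element (the E-box) and recruit a histone deacetylase complex, and their genes are typically switched on as cells leave the cell cycle. MYC, MYCN and MYCL are related proteins with overlapping activity that differ in where they are expressed. The tadpole tail is a larval organ that T3 later removes, and in the tadpole intestine mycl is known as a gene that T3 induces.

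Levels are given as log2 of the deposited intensity over the median of the same array, so that 0 is the array median. Differences are log2 fold changes with the standard error (SE) of a limma fit over all 15491 probe sets and 9 arrays, and "called" means a Benjamini-Hochberg adjusted p under 0.05 over all probe sets. Members differed widely in where they lay on the array. All 5 myc probe sets lay above the array median on 9 of 9 arrays, whereas mycl.L, mycl.S probe set 1, mycn.L and mycn.S lay far below it on every array. The names of the 5 myc probe sets carry the suffix x, given where some probes also match other transcripts, so the 2 homeologs and the probe sets of each cannot be read as independent measurements. The mycn.L probe set carries the suffix x as well. The name of max.S probe set 1 carries the suffix s, as does that of the probe set annotated to both mxd4 homeologs. The files hold no detection calls, and for members below the array median a fold change depends on the background correction.

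T3 response genes were higher at 48 h. On their list 10 of 19 probe sets were called higher and 0 lower against vehicle, where 1.99% and 1.92% of all probe sets were. Among them were the protease fap.L (log2 4.85 ± 0.27 SE), the collagenase mmp13l.S (4.75 ± 0.41), the inactivating deiodinase dio3.L (2.73 ± 0.28), the stromelysin mmp11.L (2.38 ± 0.26) and the leucine zipper gene thibz.L (4.15 ± 0.54). Each of these was also called higher against T3 6 h. The list was chosen with earlier results of these data known, so these calls are a description only. At 6 h, 0 of 19 were called, and 3 lay above vehicle without overlap, against 11% of all probe sets. For dio3.L the 6 h difference was 1.27 ± 0.28 (adjusted p = 0.155 in limma), also without overlap. Muscle markers lay at or above the array median on every array for 15 of 17 probe sets, and of 15 probe sets for genes of liver, pancreas and gut 11 lay below it on every array. The exceptions stood in T3 48 h. The summed intensity of these 15 probe sets was 18.4, 3.17 and 11.2 on T3 48 h arrays 1, 2 and 3, against 3.40 to 3.48 on the T3 6 h arrays and 3.14 to 3.49 on the vehicle arrays. The plasma carrier ttr.L lay at log2 2.49 on T3 48 h array 1 and at -2.40 and -2.38 on arrays 2 and 3, and the apolipoprotein apoa1.S at 2.60, -1.76 and 3.01. T3 48 h array 1 also lay nearest to the other groups on the first principal component, at 25.0 against 37.4 and 38.4 for arrays 2 and 3, with T3 6 h arrays between -19.7 and -16.8 and vehicle arrays between -16.5 and -14.0. Values below are therefore also given without that array where it changes a call.

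The growth regulator myc had lower values on all 5 of its probe sets after 48 h of T3, by 1.44- to 1.98-fold, and none of the 5 passed the test over all probe sets. On the myc.S probe set 2, the levels were 2.90, 2.05 and 2.56 in T3 48 h tails, 2.67, 3.07 and 3.18 in T3 6 h tails, and 3.68, 3.12 and 3.66 in vehicle tails. All 3 T3 48 h values lay below all 3 vehicle values, while the T3 6 h values overlapped both groups. The mean was 2.51 ± 0.43 at T3 48 h and 3.49 ± 0.32 in vehicle (SD, n = 3 arrays each), a log2 difference of -0.98 ± 0.24 SE (95% confidence interval -1.52 to -0.45, adjusted p = 0.0549 in limma).

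The other probe sets of myc showed the same order. For myc.S probe set 1 the levels were 1.28, 0.56 and 0.75 at T3 48 h, 1.19, 1.58 and 1.41 at T3 6 h, and 1.81, 1.38 and 1.80 in vehicle. The vehicle values again lay above those of T3 48 h without overlap (log2 difference -0.80 ± 0.21, adjusted p = 0.0635). For myc.S probe set 3 they were 1.80, 1.202 and 1.54 at T3 48 h, 1.63, 1.84 and 1.91 at T3 6 h, and 2.00, 1.96 and 2.17 in vehicle, and here both T3 groups lay wholly below vehicle (log2 difference at 48 h -0.53 ± 0.17, adjusted p = 0.107). The homeolog myc.L behaved alike on both of its probe sets. Its probe set 1 read 2.82, 2.38 and 2.79 at T3 48 h, 2.86, 2.78 and 3.11 at T3 6 h, and 3.21, 3.10 and 3.58 in vehicle, a log2 difference at 48 h of -0.63 ± 0.17 (adjusted p = 0.0730). Its probe set 2 read 2.21, 1.65 and 1.94 at T3 48 h, 2.13, 2.29 and 2.49 at T3 6 h, and 2.74, 2.28 and 2.75 in vehicle, a log2 difference of -0.65 ± 0.19 (adjusted p = 0.0821). On both, all T3 48 h values lay below all vehicle values.

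In the 3 groups the mean of every myc probe set ran from T3 48 h, the lowest, over T3 6 h to vehicle, the highest. With all 9 arrays, neighbours in that order did not pass the test on any of the 5. At T3 6 h the differences from vehicle lay between -0.52 ± 0.24 for myc.S probe set 2 and -0.25 ± 0.17 for myc.S probe set 3 (adjusted p from 0.448 to 0.620). Between T3 48 h and T3 6 h they lay between -0.53 ± 0.21 and -0.25 ± 0.17 (adjusted p from 0.151 to 0.367). In the fit without T3 48 h array 1, myc.S probe set 1 was called lower (log2 -0.73, adjusted p = 0.0303 in limma). That was 1 of the 9 fits without 1 array. In the others this probe set was not called, and its adjusted p reached 0.345. Within groups the probe sets moved together: T3 48 h array 2 was the lowest and array 1 the highest of its group on 5 of 5 probe sets, and vehicle array 2 was the lowest of its group on 5 of 5.

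The test result for myc depended on which probe sets entered the fit and on 1 array. In a fit restricted to the 8123 probe sets that reached the array median on at least 3 of 9 arrays, where fewer dim probe sets share the adjustment, 4 of the 5 were called lower at 48 h, with adjusted p of 0.0457 and 0.0489 for myc.L and 0.0350 and 0.0309 for myc.S probe sets 1 and 2, against 0.0642 for probe set 3. In that fit 6.04% of the 8123 probe sets were called lower. Without T3 48 h array 1, all 5 were called lower in the fit of all probe sets, at log2 -0.67 to -1.18 and adjusted p from 0.0104 to 0.0439. That array had the highest value of its group on 5 of 5 myc probe sets, so leaving it out lowers the group mean. It also had the highest sum of liver, pancreas and gut genes. Without that array 5.51% of all probe sets were called lower and 5.82% higher at 48 h, and 7.04% lower and 6% higher against T3 6 h. Without any other single array none of the 5 was called, with adjusted p up to 0.272. This includes T3 48 h array 3, where the sum of liver, pancreas and gut genes was 11.2. The part of those genes' RNA in the myc values was not tested.

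**Figure D1:**
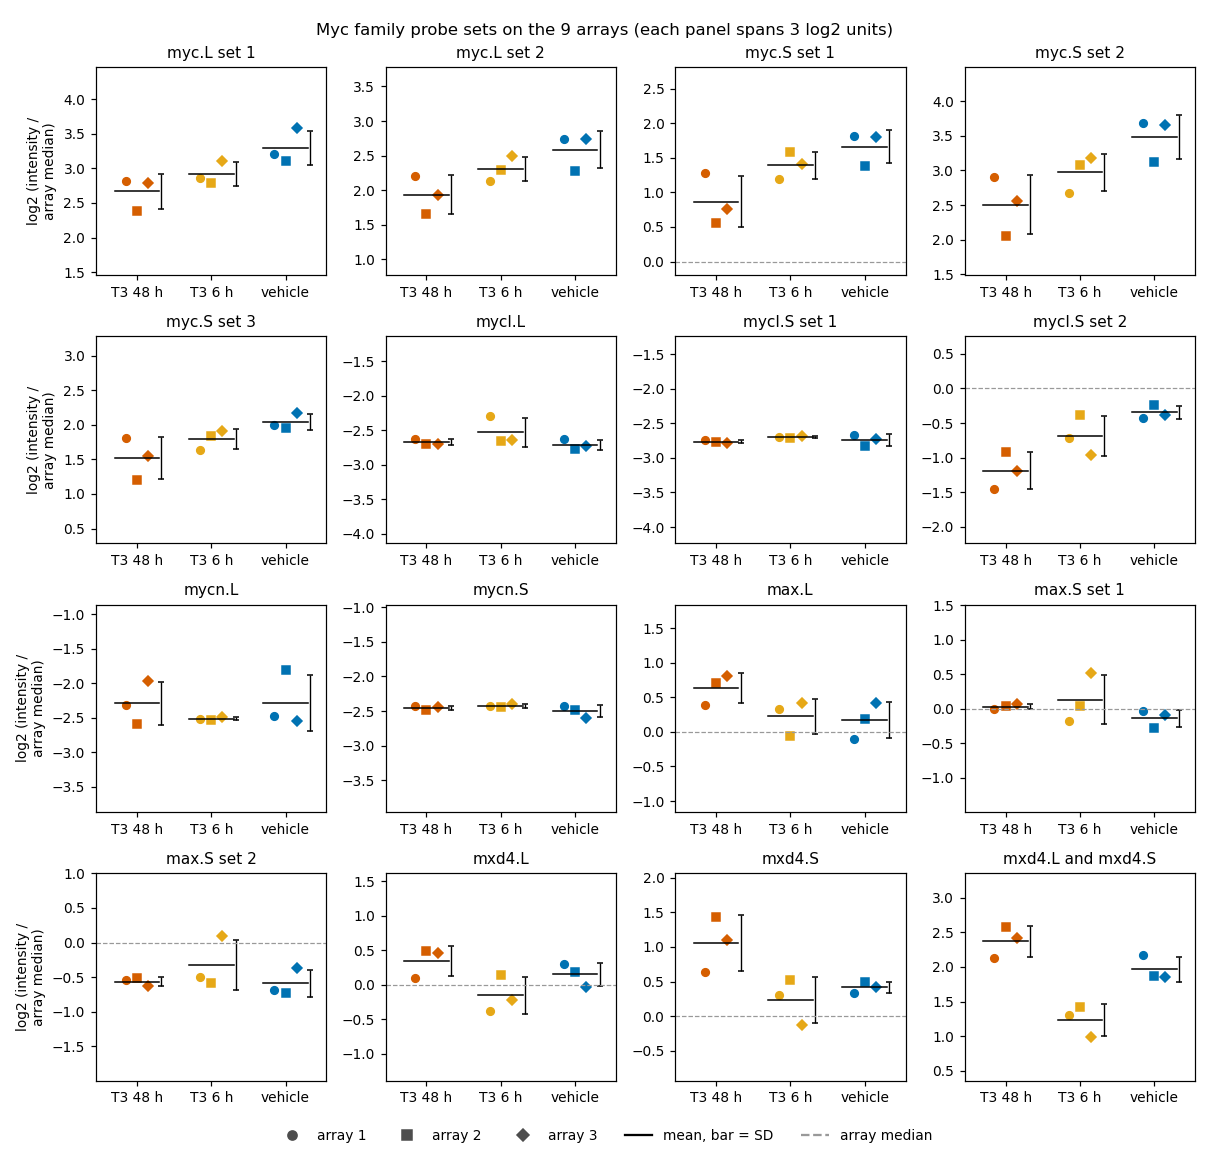
Level of each Myc family probe set on the 9 arrays, as log2 of intensity over the array median (y axes, each spanning 3 log2 units), with T3 48 h on the left, T3 6 h in the middle and vehicle on the right. Points are arrays, marked by array number, lines are means of 3 arrays and bars are SD; the T3 48 h points lie below all vehicle points in the 5 myc panels and for mycl.S set 2.

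Of the 2 mycl homeologs, mycl.S fell at 48 h on 1 of its 2 probe sets. On mycl.S probe set 2 the levels were -1.45, -0.92 and -1.19 in T3 48 h tails, -0.72, -0.38 and -0.96 in T3 6 h tails, and -0.42, -0.24 and -0.38 in vehicle tails. The T3 48 h values lay below every vehicle value, and all 9 lay below the array median. The mean of -1.19 ± 0.27 at T3 48 h against -0.35 ± 0.10 in vehicle (SD, n = 3 arrays each) gave a log2 difference of -0.84 ± 0.18 SE, a 1.80-fold fall (adjusted p = 0.0335 in limma). This was the 1 member of 16 called lower at 48 h, and 0 were called higher, where the shares over all probe sets were 1.92% lower and 1.99% higher. T3 6 h lay between the groups, at -0.34 ± 0.18 from vehicle (adjusted p = 0.494), and T3 48 h stood at -0.50 ± 0.18 from T3 6 h (adjusted p = 0.113). The call was lost without vehicle array 1, 2 or 3, T3 6 h array 1 or T3 48 h array 3 (adjusted p from 0.0518 to 0.113) and held without T3 48 h array 1 (log2 -0.71, adjusted p = 0.0355). It was also lost under quantile normalization (0.0506) and with a floor at log2 -2 (0.0737).

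The other mycl probe sets read near the bottom of the array. On mycl.S probe set 1 the levels were -2.74, -2.78 and -2.78 at T3 48 h, -2.70, -2.72 and -2.69 at T3 6 h, and -2.67, -2.83 and -2.73 in vehicle. These values stood in the lowest 3.18% to 4.34% of each array, and the log2 difference at 48 h was -0.02 ± 0.05, with a 95% confidence interval of -0.13 to 0.08. The homeolog mycl.L read -2.62, -2.70 and -2.70 at T3 48 h, -2.29, -2.65 and -2.64 at T3 6 h, and -2.63, -2.78 and -2.72 in vehicle. Its differences from vehicle were 0.04 ± 0.09 at 48 h (95% confidence interval -0.16 to 0.24) and 0.18 ± 0.09 at 6 h (adjusted p = 0.484). No probe set of mycl was called higher at either time.

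mycn, the family member best known from the embryonic nervous system, read at the same low end. On mycn.L the levels were -2.31, -2.58 and -1.97 at T3 48 h, -2.51, -2.54 and -2.50 at T3 6 h, and -2.48, -1.82 and -2.55 in vehicle, with 1 array in each of the outer groups above the rest. On mycn.S all 9 arrays lay between -2.60 and -2.39. The differences at 48 h were -0.01 ± 0.19 for mycn.L (95% confidence interval -0.44 to 0.42) and 0.05 ± 0.05 for mycn.S (-0.07 to 0.17), and at 6 h -0.24 ± 0.19 and 0.08 ± 0.05.

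max, the shared partner, lay near the array median and was not called in any comparison. For max.L the levels were 0.39, 0.70 and 0.81 at T3 48 h, 0.32, -0.06 and 0.42 at T3 6 h, and -0.11, 0.19 and 0.41 in vehicle, and T3 48 h overlapped vehicle only narrowly. Its difference at 48 h was 0.47 ± 0.19 (adjusted p = 0.192) and at 6 h 0.06 ± 0.19. On max.S probe set 1 the levels were -0.01, 0.04 and 0.06 at T3 48 h, -0.18, 0.04 and 0.52 at T3 6 h, and -0.04, -0.28 and -0.09 in vehicle, so that T3 48 h lay above vehicle without overlap by a small margin (log2 0.17 ± 0.17, adjusted p = 0.641). Its probe set 2 gave 0.03 ± 0.18 at 48 h and 0.26 ± 0.18 at 6 h. T3 6 h array 3 was the highest of the 9 arrays on both max.S probe sets, at 0.52 and 0.09.

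mxd4, the MAX-binding antagonist among the 10 family genes, was the gene of the family called between T3 48 h and T3 6 h. The probe set annotated to both mxd4 homeologs read 2.13, 2.57 and 2.42 in T3 48 h tails, 1.30, 1.42 and 0.98 in T3 6 h tails, and 2.18, 1.87 and 1.85 in vehicle tails. The T3 6 h values lay below every value of the other groups, and T3 48 h and vehicle overlapped. Between T3 48 h, at a mean of 2.37 ± 0.23, and T3 6 h, at 1.23 ± 0.23 (SD, n = 3 arrays each), the log2 difference was 1.14 ± 0.17 SE, a 2.20-fold rise (adjusted p = 0.00570 in limma). It was called in 9 of 9 fits without 1 array, at adjusted p from 0.00290 to 0.0242. Against vehicle the difference was 0.41 ± 0.17 at 48 h (adjusted p = 0.205) and -0.73 ± 0.17 at 6 h, where the unadjusted p was 0.00165 and the adjusted p 0.193.

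Between T3 48 h and T3 6 h, probe sets annotated to 1 mxd4 homeolog differed in the same direction. On mxd4.S the levels were 0.63, 1.43 and 1.10 at T3 48 h, 0.31, 0.52 and -0.12 at T3 6 h, and 0.33, 0.50 and 0.42 in vehicle. All T3 48 h values lay above those of both other groups. T3 48 h was higher than T3 6 h by 0.82 ± 0.22 (1.77-fold, adjusted p = 0.0491), a call held in 2 of the 9 fits without 1 array and in the fit past the level filter (adjusted p = 0.0258). It was lost under quantile normalization, centring, no trend, the floor and with only the arrays compared (adjusted p from 0.0518 to 0.123). It was also lost without vehicle array 1, 2 or 3, T3 6 h array 1 or 3, or T3 48 h array 2 or 3 (adjusted p from 0.0743 to 0.159). Against vehicle mxd4.S stood at 0.64 ± 0.22 at 48 h (adjusted p = 0.134 in limma, and 0.0282 without T3 48 h array 1). Of the 9 fits without 1 array, 1 gave that call, and adjusted p reached 0.340. T3 48 h array 1 had the lowest value of its group here, so leaving it out raises the group mean. At 6 h mxd4.S stood at -0.18 ± 0.22 and overlapped vehicle, unlike the probe set of both homeologs. On mxd4.L the levels were 0.10, 0.49 and 0.46 at T3 48 h, -0.38, 0.14 and -0.22 at T3 6 h, and 0.30, 0.18 and -0.03 in vehicle. T3 48 h and T3 6 h overlapped by 1 array, and the difference of 0.50 ± 0.17 had an adjusted p of 0.110 in limma (0.0492 without T3 48 h array 1). That array, again the lowest of its group, gave the call in 1 of the 9 fits without 1 array. Adjusted p reached 0.299 in the other fits. Against vehicle mxd4.L stood at 0.20 ± 0.17 at 48 h and -0.30 ± 0.17 at 6 h, neither called.

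**Figure D2:**
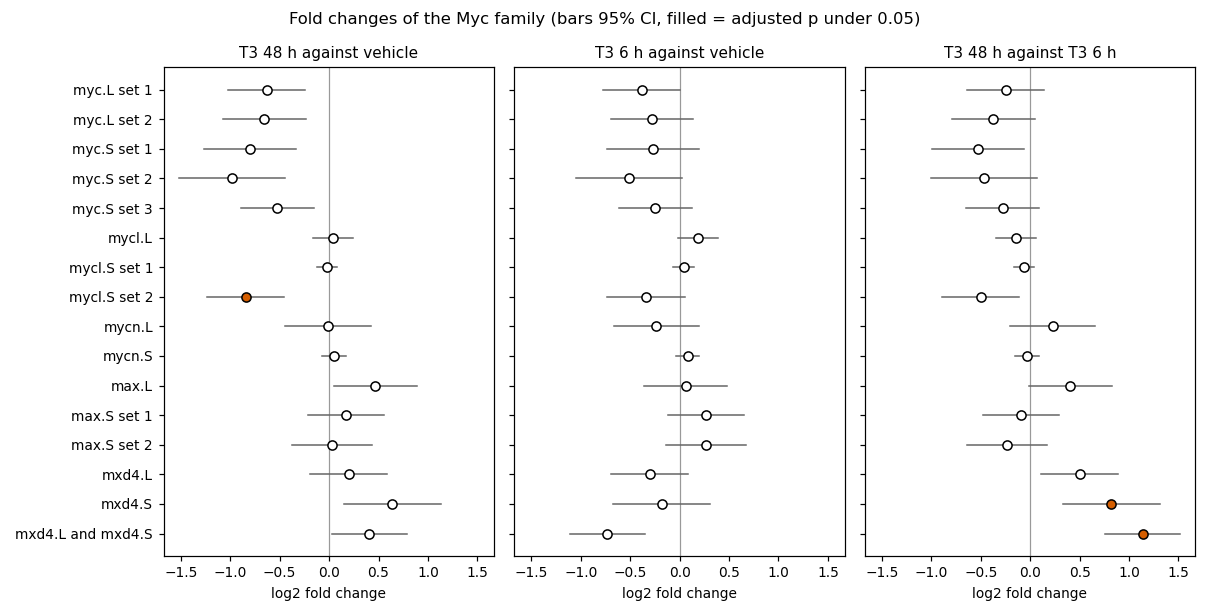
Log2 fold change (x axes) of the 16 Myc family probe sets, for T3 48 h over vehicle on the left, T3 6 h over vehicle in the middle and T3 48 h over T3 6 h on the right, with 95% confidence intervals of the limma fit as bars. Filled points have an adjusted p under 0.05: mycl.S set 2 at -0.84 in the left panel, and mxd4.S at 0.82 and the set for both mxd4 homeologs at 1.14 in the right panel.

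Over the family, the groups T3 48 h and vehicle did not overlap on 6 probe sets with T3 48 h lower (the 5 of myc and mycl.S probe set 2) and on 2 with T3 48 h higher (mxd4.S and max.S probe set 1), where 14.2% of all probe sets were lower and 9.02% higher without overlap. The median difference was 0.01 over the 16 members and -0.02 over all probe sets. At 6 h against vehicle 0 of 16 were called by limma, and 1, the probe set for both mxd4 homeologs, had an unadjusted p under 0.05. In that comparison the share of all probe sets called was 0.00646% in each direction. The groups did not overlap on 2 members, both lower at T3 6 h (myc.S probe set 3 and the probe set for both mxd4 homeologs), against 7.21% of all probe sets lower and 11% higher. The median was -0.24 over the members and 0.04 over all probe sets. Between T3 48 h and T3 6 h, 2 of 16 members were called higher and 0 lower, where the shares over all probe sets were 3.46% higher and 5.08% lower. Past the level filter 2 of 10 members were called higher, against 7.51% of the 8123 probe sets that passed it. Between T3 48 h and T3 6 h the groups did not overlap on the same 2 mxd4 probe sets, higher, and on mycl.S probe set 1, lower by 0.06. The shares of all 15491 probe sets were 9.41% and 28.2%. Both T3 groups share the vehicle arrays, and T3 48 h against T3 6 h carries no vehicle array in its difference.

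Part of the genes that make ribosomes, the class for which MYC is best known, fell at 48 h of T3. Of 63 probe sets for ribosome biogenesis factors, 10 were called lower and 0 higher against vehicle (15.9% lower, against 1.92% of all probe sets), and 59 had negative values. The median was -0.43, against -0.02 over all probe sets. Called examples were polr1e.L, a subunit of RNA polymerase I (log2 -0.66 ± 0.13), dkc1.L, which modifies ribosomal RNA (-0.91 ± 0.18), and the nucleolar assembly factors rrp1b.L (-0.90 ± 0.18) and pes1.S (-0.63 ± 0.13), all at adjusted p between 0.0245 and 0.0327 in limma. For dkc1.L the other 2 probe sets were at -0.51 and -0.07 and were not called, and for pes1.S the other was at -0.61 (adjusted p = 0.0730). At 6 h 0 of 63 were called, 47 had positive values and the median was 0.22, against 0.04 over all probe sets.

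Against T3 6 h more of these probe sets passed the test. Of the 63, 30 were called lower and 0 higher in T3 48 h against T3 6 h (47.6%, against 5.08% of all probe sets), with a median of -0.65 against -0.07 over all probe sets. The ribosome assembly factors mrto4.L (-1.09 ± 0.11) and utp15.L (-1.03 ± 0.14), polr1e.L (-1.11 ± 0.13) and the U3 particle protein rrp9.S (-1.40 ± 0.18) had the smallest p (adjusted p from 0.00145 to 0.00335), while another probe set of mrto4.L was at -0.41 and another of rrp9.S at -0.07, neither called. The count against vehicle was 0 without any of vehicle arrays 1, 2 and 3 or T3 48 h arrays 2 and 3, 3 and 4 without T3 6 h arrays 1 and 3, and 25 without T3 48 h array 1. The count against T3 6 h was 19 and 16 without T3 6 h arrays 1 and 3, 19 without T3 48 h array 3, and between 20 and 38 without any other array. Medians per array ran from -0.64 to -0.20 at T3 48 h, from 0.09 to 0.30 at T3 6 h and from -0.06 to 0.03 in vehicle. T3 48 h array 2 was the lowest and array 1 the highest of its group, as with myc and also with the growth and metabolism and cell cycle lists below. At T3 6 h the ribosome medians lay above the vehicle range and 2 of 3 myc medians lay below it. In bulk tails, fewer cells of a type and less RNA per cell cannot be told apart.

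**Figure D3:**
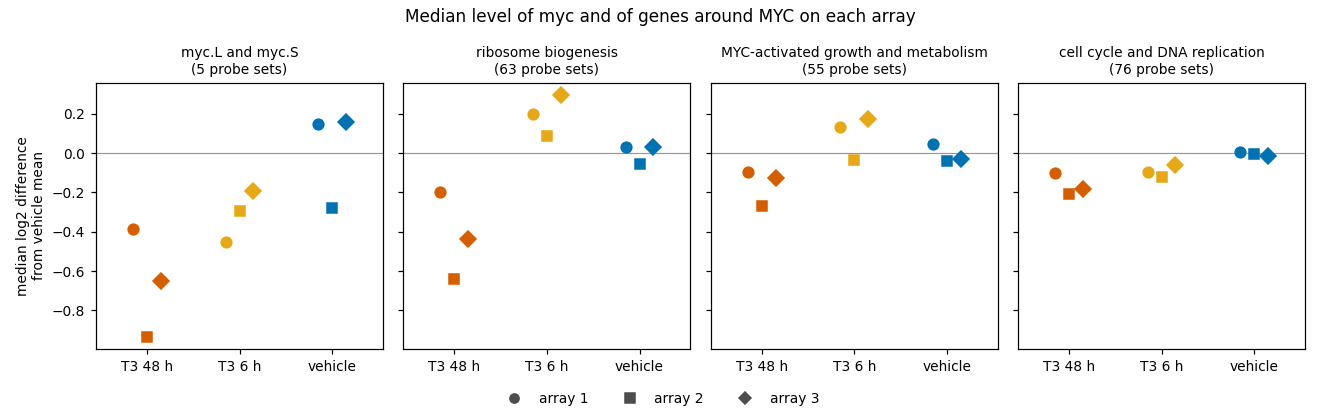
Median over probe sets of the log2 difference from the vehicle mean (y axis) on each of the 9 arrays, for the 5 myc probe sets, 63 of ribosome biogenesis, 55 of growth and metabolism genes known as MYC-activated, and 76 of the cell cycle. At T3 6 h the myc medians lie between -0.45 and -0.19 and the ribosome biogenesis medians between 0.09 and 0.30; at T3 48 h both lie below the vehicle points.

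Other genes known to be activated by MYC, for nucleotide, polyamine and energy metabolism and translation, had fewer calls. Of 55 probe sets, 1 was called lower at 48 h and 0 higher, the mitochondrial scaffold protein gene phb.L (-0.62 ± 0.13, adjusted p = 0.0309). That is a share of 1.82%, against 1.92% of all probe sets, with a median of -0.21 against -0.02 over all. Values were negative on 42 probe sets and positive on 13. Positive but not called at 48 h were the polyamine gene odc1.L (0.44, 0.59 and 0.40), cdk4.S (0.51) and slc3a2.S (0.76, adjusted p = 0.0570 in limma). Without T3 48 h array 1, 6 were called lower and 3 higher, and without any other array 0 or 1 lower. Against T3 6 h, 9 of 55 were called lower (16.4%, against 5.08% of all probe sets) and 0 higher, with a median of -0.29 against -0.07 over all. Among them were the mitochondrial co-chaperonin hspe1.L (-1.001 ± 0.17), the lactate transporter slc16a1.S (-1.07 ± 0.19, with another probe set at -0.63 that was not called), phb.L (-0.69 ± 0.13) and the nuclear transport GTPase ran.S (-0.49 ± 0.09), at adjusted p from 0.00909 to 0.0122. That count was 5 and 3 without T3 6 h arrays 1 and 3, 4 without T3 48 h array 2 or 3, and 7 to 11 otherwise, with 2 called higher without T3 48 h array 1. At 6 h 0 of 55 were called, 40 had positive and 15 negative values, and the median was 0.12, against 0.04 over all probe sets.

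Among MYC cofactors, 0 of 16 probe sets were called at 48 h or 6 h against vehicle (medians 0.01 and 0.10). Over all probe sets, 1.92% were called lower and 1.99% higher at 48 h, and 0.00646% in each direction at 6 h. Medians over all were -0.02 and 0.04. At such shares, 0 calls on a list of this size says little about the list. Without T3 48 h array 1 the cofactor count at 48 h was 1 higher, where 5.82% of all probe sets were called higher. Both homeologs of ruvbl2, an ATPase of chromatin complexes that MYC recruits, were called lower in T3 48 h than in T3 6 h, ruvbl2.S by -1.24 ± 0.24 and ruvbl2.L by -0.90 ± 0.19 (adjusted p = 0.0152 and 0.0180). Neither was called without T3 6 h array 1 or 3, and ruvbl2.L alone was called lower without T3 48 h array 3. Between T3 48 h and T3 6 h, 2 of 16 cofactor probe sets were called lower with all arrays (12.5%, against 5.08% of all probe sets). Past the level filter 3 of 12 were called lower, where 1578 of 8123 probe sets were called in either direction, 610 of them higher. Called higher was 1 cofactor probe set without T3 48 h array 1, and 1 without array 3. For genes that control the turnover of MYC protein, 0 of 12 probe sets were called in any comparison in the fit of all probe sets. Medians in the 3 comparisons were -0.04, 0.03 and -0.11, against -0.02, 0.04 and -0.07 over all probe sets. Past the level filter 1 of 5 was called lower against T3 6 h, where 1578 of 8123 probe sets were called in either direction, 610 of them higher. Of genes known to be repressed by MYC, the growth arrest genes gadd45a and gadd45g, ndrg1, ndrg2, cebpa and txnip were measured, and 0 of their 10 probe sets were called in any comparison. Their medians were 0.23 at 48 h, -0.01 at 6 h and 0.22 between T3 48 h and T3 6 h. Without T3 48 h array 1, 2 were called higher and 1 lower against vehicle, where the shares over all probe sets were 5.82% and 5.51%. Against T3 6 h 2 were called higher in that fit, where 6% of all probe sets were. Past the level filter 1 of 9 was called higher against T3 6 h, where 7.51% of the probe sets that passed were. Of the MAX-binding genes outside the 10 family genes, mnt.L and mxi1.L had a probe set each, and neither was called (0.07 ± 0.11 and -0.03 ± 0.06 at 48 h).

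Cell cycle and DNA replication genes fell at 48 h on 6 of 76 probe sets (7.89% lower, against 1.92% of all probe sets, and 0 higher), with a median of -0.17 against -0.02 over all. Called examples were the mitotic cyclin ccnb3.S (-1.03 ± 0.19), the mitotic kinases aurkb.S (-0.60 ± 0.12), aurkb.L (-1.29 ± 0.27) and plk1.S (-0.67 ± 0.14), at adjusted p from 0.0224 to 0.0329. The group means of these kinases lay below the array median, between -1.73 and -0.32, and ccnb3.S lay at 0.07 in vehicle and -0.96 at T3 48 h. Only 18 of the 76 passed the level filter. Of these, 3 were called lower at 48 h, where 6.04% of all probe sets past the filter were, and 0 against T3 6 h. The 2 other plk1.S probe sets, at -0.91 and -0.66, were not called. Against T3 6 h, 2 of 76 were called lower (2.63%, against 5.08% of all probe sets). They were plk1.S (-0.57 ± 0.14) and birc5.S, a protein of the dividing chromosome (-1.13 ± 0.26, with means of -1.86 at T3 48 h and -0.73 at T3 6 h). At 6 h 0 of 76 were called, 53 had negative and 23 positive values, and the median was -0.08, against 0.04 over all probe sets. In that comparison 17 lay below vehicle without overlap and 3 above, against 7.21% and 11% of all probe sets. The count at 48 h was 16 without T3 48 h array 1, 0 or 1 without vehicle array 1, 2 or 3, T3 6 h array 3 or T3 48 h array 2, 3 without T3 6 h array 1 and 4 without T3 6 h array 2 or T3 48 h array 3. Against T3 6 h it was 0 without T3 48 h array 2 or any T3 6 h array, 3 without T3 48 h array 1 or 3, and 1 when vehicle array 1 was left out.

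**Figure D4:**
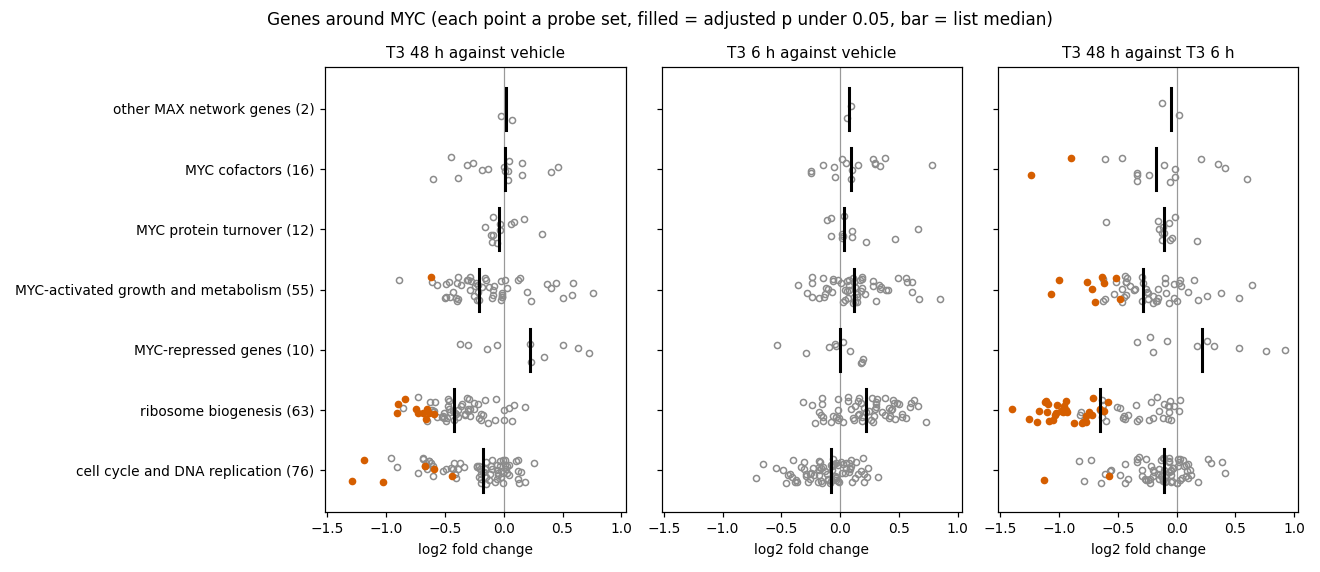
Log2 fold change (x axes) of each probe set (points) on 7 lists of genes around MYC (rows, number of probe sets in brackets), for T3 48 h over vehicle on the left, T3 6 h over vehicle in the middle and T3 48 h over T3 6 h on the right. Filled points have an adjusted p under 0.05 and black bars are medians; the ribosome biogenesis median stands at -0.43, 0.22 and -0.65 from left to right.

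Marker sums of some cell types also differed between the groups. For the counts below, the shares over all probe sets were 1.92% lower and 1.99% higher at 48 h. Against T3 6 h they were 5.08% lower and 3.46% higher. Epidermal markers summed to 174 to 214 at T3 48 h, 277 to 281 at T3 6 h and 226 to 280 in vehicle, with 3 of 10 probe sets called lower at 48 h and 5 of 10 against T3 6 h. The 3 called at 48 h were those of krt12.4.L, krt12.4.S and upk3a.L. The other epidermal differences at 48 h ran from -0.59 for krt19.L to 0.89 for tp63.L, none called. Notochord and cartilage markers summed to 7.73 to 21.5 at T3 48 h, 34.4 to 38.8 at T3 6 h and 24.0 to 38.1 in vehicle, with 1 of 7 called lower at 48 h and 5 of 7 against T3 6 h. Leukocyte markers summed to 39.4 to 83.7 at T3 48 h, 42.1 to 47.5 at T3 6 h and 44.6 to 53.1 in vehicle, with 1 of 13 called higher at 48 h, 1 against T3 6 h, and 5 below the array median on every array. Erythroid markers summed to 339 to 596 at T3 48 h, 430 to 774 at T3 6 h and 306 to 373 in vehicle, with 0 of 8 called. Muscle markers summed to 5233 to 6040, 5730 to 6025 and 5429 to 5649 in the same groups, with 0 of 17 called against vehicle and 1 lower against T3 6 h. Endothelial markers summed to 8.09 to 9.52 at T3 48 h, above 6.08 to 7.92 at T3 6 h and 6.62 to 7.52 in vehicle. Of these 4 probe sets 1 was called higher at 48 h and 0 against T3 6 h. The sums of neural, connective tissue and pigment cell markers overlapped between T3 48 h and each other group. Of 15 neural probe sets 1 was called higher in each of these comparisons, and 0 of 8 and 0 of 5 of the others were called. The part of these cell types in the values of the Myc family and of the ribosome genes was not tested.

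Named genes with profiles nearest to the 3 called members were found by the root mean square difference of mean-centred log2 values over the 9 arrays. For mycl.S probe set 2, whose own root mean square deviation was 0.40, they were gnb3.L (0.14), a G protein subunit, snx31.L (0.16), gdpd1.L (0.18), calhm2.S (0.19) and MGC115316 (0.20). For mxd4.S, with a deviation of 0.43, they were tm6sf1.L (0.15), the lipid kinase pi4ka.S (0.16), the phosphatidate phosphatase lpin2.S (0.16), the glycolytic regulator pfkfb4.S (0.17) and the sialic acid lyase npl.S (0.17). For the probe set of both mxd4 homeologs, with a deviation of 0.50, they were the peptidase cpe.L (0.15), lmbr1l.L (0.16), uaca.L (0.16), the RNA-binding protein celf2.L (0.19) and npl.S (0.20). Being picked for likeness among all named probe sets, these distances are a description only.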

How the data were processed

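Tail RNA of 9 pools was hybridised to Affymetrix Xenopus arrays. The authors deposited 1 linear intensity per probe set and array, made with GCRMA per the submitters' processing notes. Its version and further steps are not given in the sources used here. The median of every deposited column is 1, which places all arrays on a common median. Log2 of the intensity was taken. Of 15611 probe sets, 120 controls were left out. Genes were named through the platform annotation, in which 9304 probe sets have 1 gene, 195 several and 5992 none listed, and 9227 matched a RefSeq table (Xenopus_laevis_v10.1), used for names only.

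The 15491 probe sets of all 9 arrays entered a limma fit (version 3.58.1, R 4.3.3) with a term per group, eBayes with an intensity trend, two-sided tests and Benjamini-Hochberg adjustment over all probe sets. No level filter was used, because 6 of the 16 members lie below the filter (array median on at least 3 arrays) that 8123 probe sets pass; that filter was an alternative. Others were quantile normalization, centring, array weights, no trend, a floor at log2 -2, only the arrays of the 2 groups compared, a replicate block and leaving out each array. Counts of the gene lists and the named genes outside the family were added to these alternatives after the data were seen. The fit was also run on simulated data with independent noise and differences planted in T3 48 h. The outcome is not given here and is not used as support. The number of arrays limits the precision.

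The members, gene lists and tests were chosen with earlier results of these data known. Named were all members, up to 4 called probe sets of each list and comparison by smallest p, and the 5 nearest profiles of each called member; the other probe sets of those genes and the marker and MAX-binding genes named were chosen after their values were seen. Sequences were not used here.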

Additional observations from a re-analysis of the deposited data

Results flagged for a closer look

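For each of the following genes, the level at T3 48 h differed from that at T3 6 h in the test of these groups (adjusted p under 0.05 in limma). Given is the log2 difference of T3 48 h minus T3 6 h, which holds length of hormone exposure and elapsed time together. In the Myc family these were mxd4.S (0.82) and the probe set for both mxd4 homeologs (1.14). Lower at T3 48 h were the MYC cofactor genes ruvbl2.S (-1.24) and ruvbl2.L (-0.90), the growth genes hspe1.L (-1.001), slc16a1.S (-1.07), phb.L (-0.69) and ran.S (-0.49), the ribosome genes mrto4.L (-1.09), polr1e.L (-1.11), rrp9.S (-1.40) and utp15.L (-1.03), the mitotic genes birc5.S (-1.13) and plk1.S (-0.57), and calhm2.S (-0.73), a nearest profile of mycl.S probe set 2. Higher at T3 48 h were the T3 response genes fap.L (4.54), mmp13l.S (4.20), mmp11.L (2.50) and thibz.L (4.01), and, among the nearest profiles, pfkfb4.S (1.05), npl.S (0.93), cpe.L (1.03), lmbr1l.L (1.40), uaca.L (0.93) and celf2.L (0.96). The nearest profiles other than calhm2.S were picked for likeness to mxd4 probe sets that had passed this test, so their passing adds nothing. mycl.S probe set 2 itself did not pass it (-0.50, adjusted p = 0.113 in limma).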

How the results depend on the processing

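The 3 calls in the family rest on adjusted p near the threshold except for the probe set of both mxd4 homeologs. The family count at 48 h against vehicle was 1. It was 4 past the level filter, 0 under quantile normalization, 3 with array weights and 0 with the floor, and ranged from 0 to 7 without 1 array (7 without T3 48 h array 1). Between T3 48 h and T3 6 h it was 2, and 1, with the mxd4.S call lost, under quantile normalization, centring, no trend, the floor or only the arrays compared, with a range of 1 to 4 without 1 array. At 6 h it was 0 under every alternative run. Over all probe sets, 605 were called at 48 h, 892 past the filter, 935 with array weights, 246 with the floor, 297 with only the arrays compared, and 89 to 1755 without 1 array. At 6 h limma called 2, with 1737 at an unadjusted p under 0.05. It called 18 past the filter, 101 with array weights, 6 without trend, 9 with only the arrays compared, and 0 to 13 without 1 array. Between T3 48 h and T3 6 h it called 1323, 1998 with array weights, 579 with only the arrays compared, and 543 to 2019 without 1 array.

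The ribosome biogenesis count at 48 h (10) was 16 past the filter and with array weights, 2 with the floor or only the arrays compared, and 1 with the replicate block. Against T3 6 h (30) it was 17 with only the arrays compared and 22 to 39 otherwise. The cell cycle count at 48 h (6) ranged from 0 to 12 over the alternatives that kept all arrays.

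Samples with the same replicate number did not deviate together (correlations of deviations from -0.11 to 0.09 over 9 pairs), so the numbers are not taken as pairs. With the replicate block, 361 probe sets were called at 48 h and 0 at 6 h, and the family counts did not change.

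Signs turned only for members near 0 that were not called. At 48 h, mycl.S probe set 1 came to 0.0016 under quantile normalization and -0.069 to 0.014 without 1 array, mycn.L to 0.0092, 0.0027 and 0.065 under quantile normalization, centring and array weights and -0.17 to 0.22 without 1 array, and max.S probe set 2 to -0.039 with array weights and -0.042 to 0.14 without 1 array. At 6 h, mycl.S probe set 1 came to -0.0086 under quantile normalization and -0.0049 to 0.079 without 1 array, and max.L to -0.076 to 0.20 without 1 array. Between T3 48 h and T3 6 h, mycl.S probe set 1 came to 0.010 and mycn.S to 0.043 under quantile normalization, mycn.S to 0.010 under centring, and max.S probe set 1 to -0.25 to 0.098 without 1 array. Under the floor, members with all values at the floor had no value. The causes of these changes were not tested.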
